A study of Mus musculus with 6 samples.

Results

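The fatty acid elongases and desaturases analysed here are 9 genes, Fads1, Fads2, Fads3, Fads6, Scd2, Elovl1, Elovl2, Elovl3 and Elovl5, taken by gene symbol from a table of 56674 rows, and all 9 were found there. They were measured by RNA sequencing of poly(A)-selected liver RNA of male mice of the inbred strain C57BL/6 after 71 weeks. One group of 3 libraries came from mice whose chow contained polypropylene black microplastic (PB-MP), and the other group of 3 came from mice on normal chow (control). The comparison addressed whether long dietary exposure to the plastic alters liver gene expression, and the amount of plastic in the chow is not stated in the labels. Nothing in the labels ties the 3 libraries of a diet to separate mice, so the p-values rest on a spread between samples that may be technical.

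Values are raw read counts scaled to CPM, reads of a gene per 1000000 reads of the library, after adjustment by the trimmed mean of M-values (TMM), which assumes that most genes do not differ. The PB-MP libraries held 70603124 to 90483598 counted reads and the control libraries 68357478 to 112566641. Summed over 6 hepatocyte markers such as Alb and Ttr, levels ran from 62269 to 72242 CPM in PB-MP and from 58199 to 69906 CPM in control. This sum mainly follows Alb, which ran from 49897 to 54433 CPM in PB-MP and from 47165 to 56244 CPM in control. Apoa1, another of the 6, ran from 2860 to 7076 CPM in PB-MP and from 1160 to 3673 CPM in control. The groups overlapped for each of the 6. Mitochondrial rows took 9.24% to 11.3% of the reads in PB-MP and 14.9% to 16.4% in control, and ribosomal RNA rows took 9.47% in PB-MP replicate 2 and 11.3% in control replicate 2, against at most 3.64% in the other 4 libraries. The part of these differences in the results below was not tested. In bulk liver, fewer cells of a type and less RNA per cell cannot be told apart.

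Elongases of the Elovl family catalyse the first, rate-limiting step by which fatty acids are lengthened in the endoplasmic reticulum, and desaturases place double bonds in the chain. From the dietary essential fatty acids, linoleic and alpha-linolenic acid, the liver makes arachidonic acid and docosahexaenoic acid by alternate desaturation and elongation. Fads2 encodes the delta-6 desaturase that opens this route, Elovl5 and Elovl2 the elongases of polyunsaturated chains, and Fads1 the delta-5 desaturase that follows. Elovl1 and Elovl3 lengthen saturated and monounsaturated chains, and Scd2 encodes a stearoyl-CoA desaturase, which makes monounsaturated fatty acids. Fads3 acts on sphingoid bases, and Fads6 is placed in the family by sequence.

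No elongase or desaturase passed the test between PB-MP and control, while 8 of the 9 estimates lay below 0. In the quasi-likelihood test of edgeR, with p-values adjusted over 17871 genes by the method of Benjamini and Hochberg and a threshold of 0.05, 0 of the 9 rose and 0 fell, against 0% in each direction over all genes. At an unadjusted p below 0.05, 3 members were lower, Elovl3, Elovl2 and Scd2, where 4.74% of all genes were lower, and 0 members were higher, where 7.35% of all genes were higher. For 3 members, Elovl3, Elovl2 and Fads6, every PB-MP library lay below every control library, where 8.49% of all genes did so. For 0 members every PB-MP library lay above, where 11.4% of all genes did so, which makes 19.8% of all genes without overlap. The median log2 fold change of the 9, PB-MP over control, was -0.51, against 0.01 for all genes tested, and an estimate below 0 was seen for 49.4% of all genes. With library size alone as the scaling the 2 medians were -0.29 and 0.23, and changes are given here relative to the TMM scaling. With DESeq2, 1 member passed, Elovl3, lower in PB-MP, where 0.719% of all genes were called lower, 1.72% higher and 2.44% in either direction, and with limma-voom 0 members and 0% of all genes passed.

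The summed level of the 9 genes was 2249, 1734 and 1490 CPM in PB-MP replicates 1, 2 and 3, against 3393, 2394 and 2474 CPM in control replicates 1, 2 and 3. Every PB-MP library thus lay below every control library, although PB-MP replicate 1 and control replicate 2 were close. Unscaled, the 9 took 0.251%, 0.181% and 0.161% of the reads in PB-MP, against 0.326%, 0.212% and 0.231% in control, and on that scale the groups overlapped. Control replicate 1 was the highest library for 6 of the 9 genes, and PB-MP replicate 3 was the lowest for 6.

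**Figure D1:**
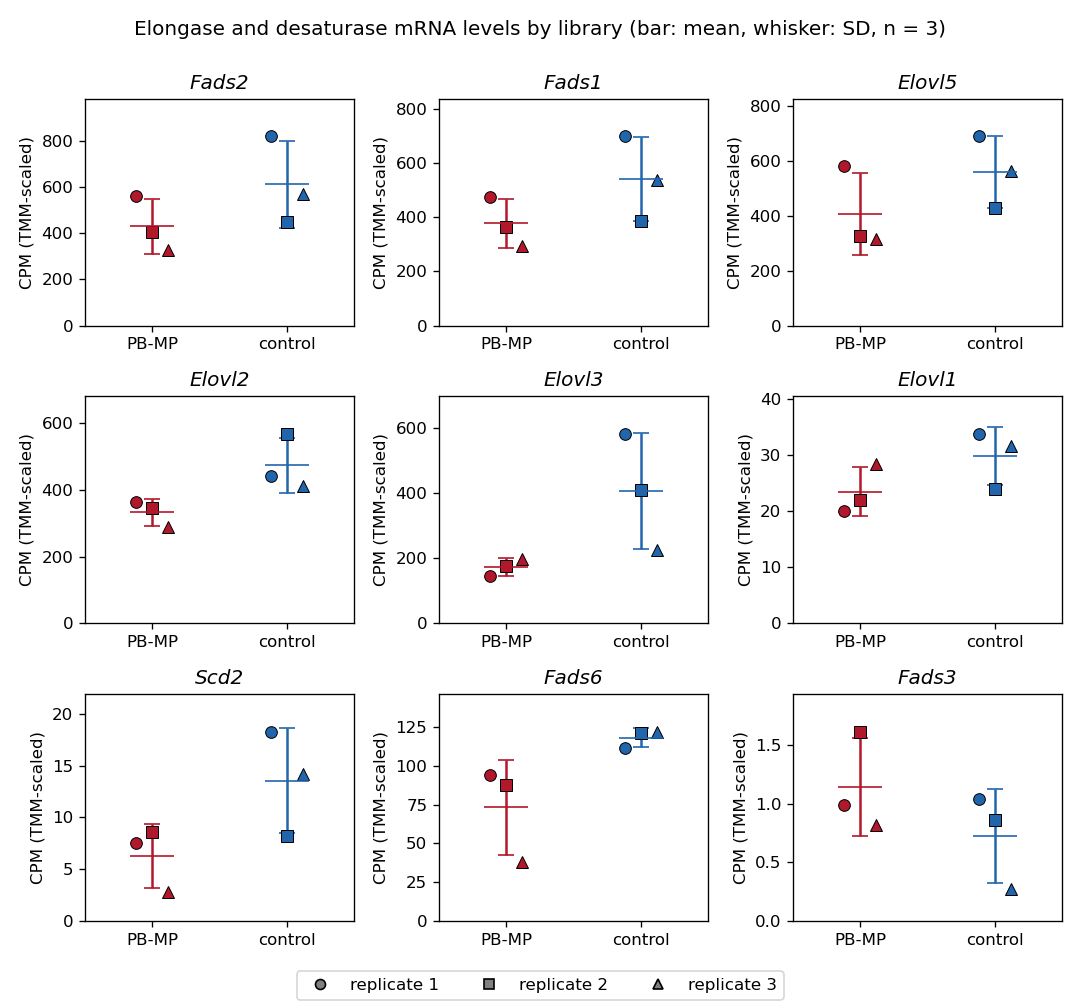
CPM of each of the 9 genes (vertical axis, from 0) in the 3 PB-MP libraries (left, red) and the 3 control libraries (right, blue), with the mean and SD of each group. The points of Elovl3, Elovl2 and Fads6 do not overlap between the groups, and the points of Fads3 are at or below 1.61 CPM in every library.

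Scaled per kilobase of exon, 5 of the genes were abundant and 4 were not. In PB-MP the order was Fads2 at 131 ± 36.1 CPM per kb, Elovl5 at 115 ± 42.9, Elovl3 at 87.7 ± 13.3, Elovl2 at 83.8 ± 10.2 and Fads1 at 78.3 ± 18.9 (SD, n = 3). Each of these overlapped its neighbour in the order. In control the order was Elovl3 at 206 ± 90.0 CPM per kb, Fads2 at 186 ± 57.6, Elovl5 at 159 ± 37.0, Elovl2 at 119 ± 20.7 and Fads1 at 112 ± 32.5 (SD, n = 3), again with overlap between neighbours. Elovl3 held the third place in PB-MP and the first in control. Its share of the summed length-scaled level of the 9 genes was 11.9%, 18.1% and 22.9% in PB-MP, against 28.6%, 29.0% and 16.5% in control, so the shares of the groups overlapped.

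The 4 less abundant genes kept 1 order in both groups. Fads6 stood at 11.0 ± 4.60 CPM per kb in PB-MP and 17.7 ± 0.904 in control, Elovl1 at 8.61 ± 1.61 and 10.9 ± 1.90, Scd2 at 1.15 ± 0.560 and 2.48 ± 0.921, and Fads3 at 0.300 ± 0.109 and 0.191 ± 0.106 (SD, n = 3 each). Among these, ranges overlapped only between Fads6 and Elovl1 in PB-MP. Scd1, the stearoyl-CoA desaturase of adult liver and not among the 9, stood at 655 CPM per kb in PB-MP and 1159 in control, far above Scd2.

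**Figure D2:**
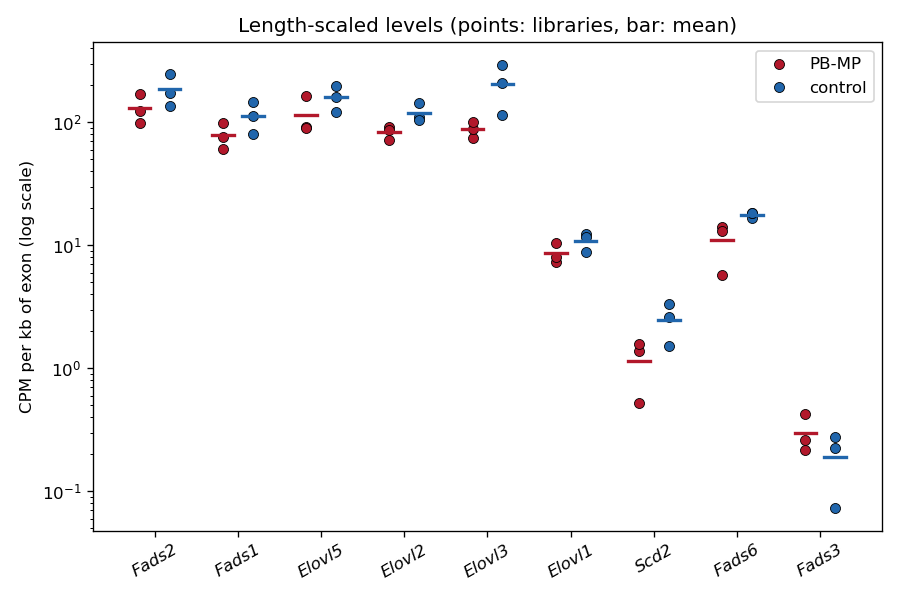
CPM per kilobase of exon on a log axis for the 9 genes, with 1 point per library and a bar at the mean, PB-MP (red) left of control (blue). Fads2, Fads1, Elovl5, Elovl2 and Elovl3 lie between 60.8 and 294 CPM per kb in every library, and Fads3 is at most 0.424.

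The genes of the polyunsaturated route, Fads2, Fads1 and Elovl5, followed each other from library to library, and their groups overlapped. Promoter sequences, from 250 bases before to 50 bases after the start in RefSeq on GRCm38.p6, were at hand for 6 of the 9 genes, Elovl1, Elovl2, Elovl5, Fads2, Fads3 and Fads6, and not used here for Fads1, Scd2 and Elovl3. Those of Fads2 (chr19:10101454-10101753, minus strand) and Elovl5 (chr9:77917115-77917414, plus strand) are shown because their transcripts moved together. Both read 5′ to 3′ on the gene's strand, and capitals mark matches, on either strand, to the E-box CACGTG, the CCAAT box and the GC box GGGCGG.
Fads2: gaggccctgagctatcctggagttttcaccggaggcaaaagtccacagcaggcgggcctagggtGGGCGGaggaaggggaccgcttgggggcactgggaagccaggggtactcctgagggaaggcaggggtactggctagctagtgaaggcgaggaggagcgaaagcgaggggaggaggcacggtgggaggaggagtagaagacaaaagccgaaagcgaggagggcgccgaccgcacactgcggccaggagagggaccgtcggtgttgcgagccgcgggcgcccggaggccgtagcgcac
Elovl5: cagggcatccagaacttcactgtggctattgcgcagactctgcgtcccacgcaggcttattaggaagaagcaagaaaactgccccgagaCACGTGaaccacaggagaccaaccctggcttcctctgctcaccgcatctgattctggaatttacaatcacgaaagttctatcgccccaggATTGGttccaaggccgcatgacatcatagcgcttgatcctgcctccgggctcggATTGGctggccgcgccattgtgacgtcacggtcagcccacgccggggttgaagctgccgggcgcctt

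In these windows the 2 promoters shared none of the motifs searched. The Fads2 window held 1 GC box, which begins 186 bases before the start, and 35.6% of 32817 mouse promoters of the same length hold one. The Elovl5 window held 1 E-box, 161 bases before the start, a motif found in 7.15% of promoters, and 2 CCAAT boxes in reverse, 71 and 17 bases before the start, found in 37.4%. Of the 8 windows of members, 6 held a GC box, 3 a CCAAT box and 1 an E-box, and enrichment was not tested. The sterol regulatory element TCACNCCAC was matched in 0 of the 8 windows of members and in 1.24% of all promoters. The TATA box TATAAA was matched in 0 of the 8 and in 13.6% of all promoters, and the nuclear receptor core site AGGTCA in windows of Elovl1 and Fads6 and in 16.3% of all promoters. A match is a string of letters and was not tested as a binding site. No motif overlapped another in the 2 printed windows.

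Fads2, the delta-6 desaturase, had 561, 405 and 327 CPM in PB-MP replicates 1, 2 and 3, against 820, 448 and 568 CPM in control replicates 1, 2 and 3. The PB-MP library was the lower in 8 of 9 pairs of libraries, the exception being PB-MP replicate 1 over control replicate 2. The log2 fold change was -0.51 ± 0.29 (SE; 95% interval -1.20 to 0.18; edgeR adjusted p = 0.525). It was -0.25 without control replicate 1 and -0.74 without PB-MP replicate 1.

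Fads1, the delta-5 desaturase, had 473, 365 and 293 CPM in PB-MP, against 698, 386 and 537 CPM in control. It too was lower in PB-MP in 8 of 9 pairs, with the same library as exception, and its log2 fold change was -0.52 ± 0.28 (95% interval -1.17 to 0.13; edgeR adjusted p = 0.491), or -0.31 without control replicate 1 and -0.74 without control replicate 2. The ratio of Fads1 to Fads2 reads, which no scaling changes, was 0.844, 0.901 and 0.893 in PB-MP, against 0.851, 0.860 and 0.945 in control. The difference of the log2 ratio was -0.01 (exact permutation test, two-sided, p = 0.9, 1 after adjustment over the 3 ratios tested, where 3 against 3 libraries cannot give a p below 0.1).

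Elovl5, which lengthens the products of the delta-6 step, had 581, 325 and 314 CPM in PB-MP, against 690, 429 and 564 CPM in control. PB-MP replicate 1 lay above 2 of the 3 control libraries, and the log2 fold change was -0.46 ± 0.30 (95% interval -1.17 to 0.25; edgeR adjusted p = 0.574). It was -0.81 without PB-MP replicate 1 and -0.30 without control replicate 1.

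Likeness between genes was taken as the mean absolute difference of their log2 CPM over the 6 libraries, each gene centred on its own mean. By this measure the named gene nearest to Fads1 among 11352 was Fads2, and the nearest to Fads2 was Fads1, at a difference of 0.05. Elovl5 differed from Fads1 by 0.11 and from Fads2 by 0.12, and ranked 23 and 9 in order of nearness to them among 12545 genes. All values share the libraries and the scaling, and the profile includes any difference between the diets. Fads1 and Fads2 are neighbours on chromosome 19 in RefSeq on GRCm38.p6, with Fads3 on the other side of Fads2. Fads3 differed from Fads2 by 0.70 and from Fads1 by 0.72. No stretch of 31 bases was common to transcripts of Fads1 and Fads2 in GENCODE M21.

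**Figure D3:**
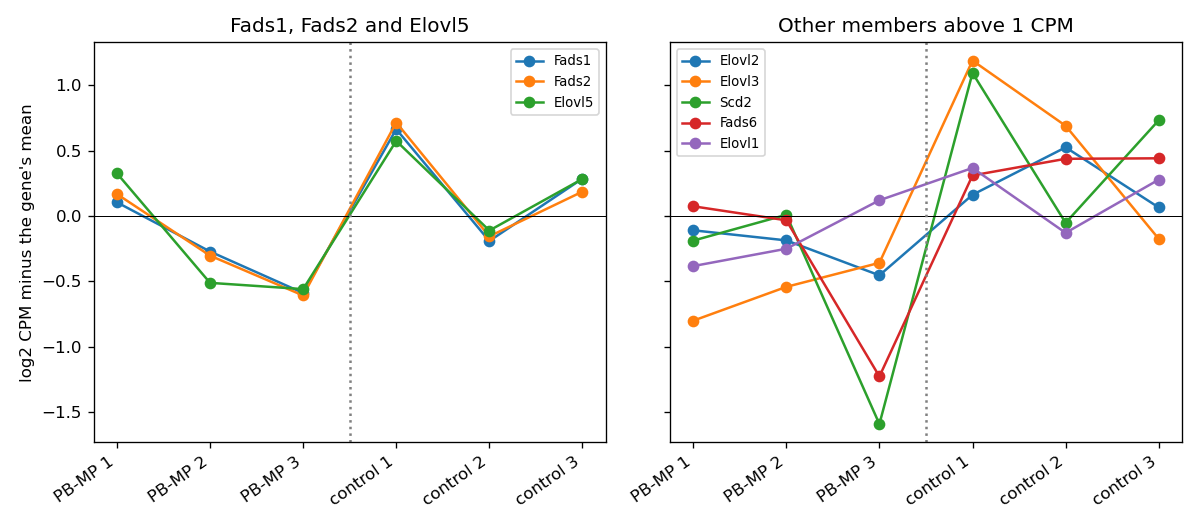
Log2 CPM minus the mean of each gene in the 6 libraries, PB-MP left of control, for Fads1, Fads2 and Elovl5 (left panel) and for the other members above 1 CPM (right panel); lines join the values of 1 gene and the order of replicates has no meaning. The 3 lines at left nearly coincide, highest in control replicate 1 and lowest in PB-MP replicate 3, while the lines at right diverge.

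Elovl2, the elongase of the longest polyunsaturated chains and needed to make docosahexaenoic acid, was one of the members whose groups did not overlap. It had 365, 346 and 287 CPM in PB-MP, against 440, 566 and 412 CPM in control. Its highest library was control replicate 2, where Fads1, Fads2 and Elovl5 were lowest among controls. The log2 fold change was -0.51 ± 0.19 (95% interval -0.96 to -0.06; edgeR adjusted p = 0.367). The ratio of Elovl5 to Elovl2 reads was 1.59, 0.940 and 1.09 in PB-MP, against 1.57, 0.757 and 1.37 in control (difference of log2 ratios 0.00, exact permutation p = 1, also after adjustment). The difference turned to -0.21 without PB-MP replicate 1 and to -0.31 without control replicate 2. The named gene nearest to Elovl2 was Trp53i11, at a difference of 0.04.

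Elovl3, an elongase of saturated and monounsaturated very long chains, had the smallest p of the 9. It is known in mouse liver as a gene of higher expression in males and of a daily rhythm. Its levels were 146, 175 and 199 CPM in PB-MP, against 581, 411 and 226 CPM in control. The PB-MP libraries lay close together and the control libraries were spread over 2.57 times, with control replicate 3 near the PB-MP range. The log2 fold change was -1.23 ± 0.34 (95% interval -2.03 to -0.43; edgeR adjusted p = 0.260), or 0.427 times control. DESeq2 gave -1.22 ± 0.36 on the same counts (DESeq2 adjusted p = 0.0338). Without control replicate 1 the edgeR estimate was -0.87, and without control replicate 3 it was -1.52.

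Male-biased and clock genes are set beside Elovl3 because of its known regulation, and their part in its level was not tested. Of 14 male-biased liver genes, 0 passed in edgeR and DESeq2 called 2 lower, Cyp4a12a and Cyp4a12b. At an unadjusted p below 0.05, 5 were lower and 0 higher, and the median log2 fold change was -0.42. Over all genes, DESeq2 called 0.719% lower and 1.72% higher, and 4.74% were lower and 7.35% higher at that unadjusted p. Estimates lay below 0 for 10 of the 14 and above 0 for 4. Slco1a1 at 0.58 ± 0.81 and Mup3 at 0.45 ± 0.36 were among those 4. Cyp4a12a, a fatty acid hydroxylase, was at 112, 106 and 180 CPM in PB-MP and 456, 336 and 487 CPM in control (-1.68 ± 0.27, edgeR adjusted p = 0.207, DESeq2 adjusted p = 4.83e-05). Cyp4a12b, a close paralog with which it may share reads, was at -1.87 ± 0.32 and Selenbp2, a selenium-binding protein, at -0.66 ± 0.16. Of 12 tested female-biased genes among 14, 0 passed in edgeR, DESeq2 called 1 higher, Cux2, 2 were higher and 1 lower at an unadjusted p below 0.05, and the median was 0.53. Cux2, a transcription factor of female liver, was at 0.951, 3.75 and 0.872 CPM in PB-MP and 0.192, 0.215 and 0.295 CPM in control (2.97 ± 0.66, edgeR adjusted p = 0.219, DESeq2 adjusted p = 0.000698). PB-MP replicate 2 stood above the other 2 PB-MP libraries, and without it the edgeR estimate was 1.95. Cyp2a4, a cytochrome P450, was at -0.82 ± 0.35 and Acot3, a peroxisomal acyl-CoA thioesterase, at 0.49 ± 0.22.

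Over all genes, 7.35% were higher and 4.74% lower at an unadjusted p below 0.05. Of 16 clock genes and clock outputs, 0 passed, 1 was higher and 0 were lower at that p, and the median was 0.11. That gene was Per2, a repressor of the clock, with 10.6, 5.54 and 8.81 CPM in PB-MP and 3.90, 3.28 and 5.84 CPM in control (log2 fold change 0.94 ± 0.33, edgeR adjusted p = 0.342). Cry1, its partner, was at -0.82 ± 0.38 and Npas2, an activator of the clock, at -1.10 ± 0.51, and without control replicate 1 they were at -0.45 and -0.58. Npas2 and Cry1 were lowest among controls in replicate 3, as Elovl3 was. Npas2 had 4.38, 2.82 and 0.989 CPM in control replicates 1, 2 and 3, in the same order as Elovl3, and 1.19, 1.54 and 1.08 CPM in PB-MP. Other clock genes, chosen after their values were seen, were highest among controls in replicate 3. Dbp, a clock output, had 26.3, 15.4 and 12.6 CPM in PB-MP, against 2.003, 2.24 and 44.5 CPM in control. Per3 had 5.87, 2.07 and 0.605 CPM in PB-MP, against 0.576, 0.511 and 4.50 CPM in control, and Ciart, a clock repressor, had 6.20, 0.757 and 1.56 CPM in PB-MP, against 0.837, 0.116 and 4.68 CPM in control. Control replicate 3, the control library nearest to PB-MP in Elovl3, stood apart from control replicates 1 and 2 in Dbp, Per3 and Ciart. Arntl and Nr1d1, also chosen after their values were seen, set it apart too. Arntl had 11.8, 13.2 and 3.39 CPM in control replicates 1, 2 and 3, and Nr1d1 had 49.3, 51.0 and 106 CPM. Hlf and Clock, chosen in the same way, did not set control replicate 3 apart. In control replicates 1, 2 and 3, Hlf had 18.1, 6.80 and 13.6 CPM and Clock had 14.8, 38.6 and 16.0 CPM. The time of day of sampling is not stated in the labels, so sampling time and diet cannot be told apart.

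Elovl1, the more widely expressed elongase of the same chain classes, had 20.03, 21.96 and 28.4 CPM in PB-MP, against 33.7, 23.9 and 31.7 CPM in control. The groups overlapped, since PB-MP replicate 3 lay above control replicate 2, and the log2 fold change was -0.34 ± 0.21 (95% interval -0.84 to 0.16; edgeR adjusted p = 0.554), or -0.51 without PB-MP replicate 3. The ratio of Elovl3 to Elovl1 reads was 7.30, 7.97 and 6.997 in PB-MP, against 17.2, 17.2 and 7.12 in control. Control replicates 1 and 2 stood apart from the other 4 libraries, and the log2 ratio differed by -0.79 (exact permutation p = 0.3, adjusted 0.9). Exons of Elovl1 overlap those of Cdc20 on the opposite strand by 53 of 2726 bases in GENCODE M21, and those of Elovl3 overlap Pitx3 by 10 of 1975, and reads there may be counted for either gene. The named gene nearest to Elovl1 was Fbxo6, at 0.02, and the nearest to Elovl3 was Cd79a, a B cell receptor subunit, at 0.19. Markers of immune cells are given beside it, and their part in the level of Elovl3 was not tested. The sum over 5 B cell and plasma cell markers, Cd79a among them, was 11.2, 13.2 and 8.80 CPM in PB-MP, against 38.996, 56.1 and 17.9 CPM in control, and that over 5 T cell markers was 2.48, 3.36 and 2.84 CPM in PB-MP, against 3.83, 5.59 and 4.07 CPM in control. Both sums were lower in every PB-MP library than in any control library, while the sum over 5 neutrophil markers was higher, at 3.04, 3.14 and 5.48 CPM in PB-MP, against 1.74, 1.17 and 1.26 CPM in control. Jchain, named after its values were seen, was the largest part of the B cell and plasma cell sum in every library but PB-MP replicate 3. It was the only 1 of those 5 markers whose groups did not overlap. The groups overlapped for Cd79a, Cd79b, Ms4a1 and Mzb1, so the separation of that sum does not hold for the list as a whole. Nor does that of the T cell sum, since the groups overlapped for Cd3d, Cd3g and Cd8a and not for Cd3e and Trac. Of the 5 neutrophil markers, Ly6g had 0 reads in every library, and the other 4 did not overlap. Over all genes, 8.49% were lower and 11.4% higher without overlap. The sum over 6 macrophage markers was 124, 110 and 201 CPM in PB-MP, against 112, 84.7 and 116 CPM in control, so the groups overlapped. Its 6 estimates all lay above 0, with a median of 0.43. In these 4 lists edgeR called 0 genes, and DESeq2 called 1 B cell and plasma cell marker lower and 1 neutrophil marker higher. Over all genes, DESeq2 called 0.719% lower and 1.72% higher.

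Scd2, a stearoyl-CoA desaturase of brain and newborn liver in the mouse, was present at a low level. It had 7.49, 8.59 and 2.83 CPM in PB-MP, against 18.2, 8.23 and 14.2 CPM in control, and PB-MP replicate 2 lay just above control replicate 2. The log2 fold change was -1.10 ± 0.46 (95% interval -2.20 to -0.01; edgeR adjusted p = 0.411), and -0.76 without PB-MP replicate 3. Of its transcript stretches of 50 bases, 2.66% also occur in Scd1, whose reads outnumber those of Scd2 by 185 to 794 times, and reads of such stretches cannot be assigned to either gene without the counting settings. The ratio of the 2 genes was not constant over the libraries.

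Markers of other cell types are set beside Scd2, and their part in its level was not tested. The sum over 7 adipocyte markers was 17.4, 6.71 and 22.2 CPM in PB-MP, against 93.8, 19.97 and 82.5 CPM in control. In control, Scd2 and these markers were both lowest in replicate 2, while in PB-MP Scd2 was lowest in replicate 3, where the marker sum was highest. Of the 7, Lep had 0 reads in every library, 4 were testable, 0 passed in edgeR, DESeq2 called 1 lower, and 3 were lower at an unadjusted p below 0.05. Cidea, a lipid droplet protein, was the largest part of the sum in every library but PB-MP replicate 2, and like Cfd it was chosen after its values were seen. It had 12.7, 2.28 and 13.2 CPM in PB-MP, against 81.1, 13.4 and 65.3 CPM in control. Cfd, the gene called by DESeq2 (DESeq2 adjusted p = 3.18e-05), had 0.723, 0.615 and 1.30 CPM in PB-MP, against 8.71, 2.195 and 11.98 CPM in control. The defining adipocyte genes Adipoq and Plin1 were at or near 0, with 0 to 9 and 0 to 5 reads in PB-MP and 0 to 2 and 0 reads in control. Fabp4, a fatty acid carrier and the largest part of the sum in PB-MP replicate 2, was estimated at 0.26 ± 0.32 (edgeR adjusted p = 0.777). The sum over 7 stellate cell and fibroblast markers was 164.9 to 283 CPM in PB-MP and 298 to 304 CPM in control. Dcn, whose groups overlapped, was the largest part of it in every library. It had 104, 184 and 187 CPM in PB-MP, against 176, 202 and 201 CPM in control. Of the 7, 0 passed in edgeR and DESeq2 called 1 lower. At an unadjusted p below 0.05, 3 were lower, the collagens Col1a1, Col1a2 and Col3a1. Beside this list and the adipocyte list, 4.74% of all genes were lower at that unadjusted p, and DESeq2 called 0.719% lower. Lrat was the only 1 of the 7 estimated above 0, at 0.32 ± 0.39. The named gene nearest to Scd2 was Col14a1, a fibril-associated collagen, at 0.16.

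Fads6 had 94.3, 87.6 and 38.2 CPM in PB-MP, against 111, 121 and 122 CPM in control. Its control libraries were the least spread of the 9 genes, with an SD of 5.09% of their mean, and PB-MP replicate 3 stood far below PB-MP replicates 1 and 2. The log2 fold change was -0.69 ± 0.32 (95% interval -1.45 to 0.08; edgeR adjusted p = 0.449), and -0.38 without PB-MP replicate 3. The named gene nearest to it was Klc1, at 0.10.

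Fads3 was nearly absent, with 78, 136 and 80 reads in PB-MP, against 76, 52 and 29 reads in control. These counts are 0.989, 1.61 and 0.821 CPM in PB-MP and 1.04, 0.858 and 0.276 CPM in control. The groups overlapped. Fads3 was the only one of the 9 with an estimate above 0, at 0.66 ± 0.52 (95% interval -0.58 to 1.89; edgeR adjusted p = 0.653). That estimate was 0.25 without control replicate 3, 0.33 without PB-MP replicate 2 and 1.03 without control replicate 1.

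**Figure D4:**
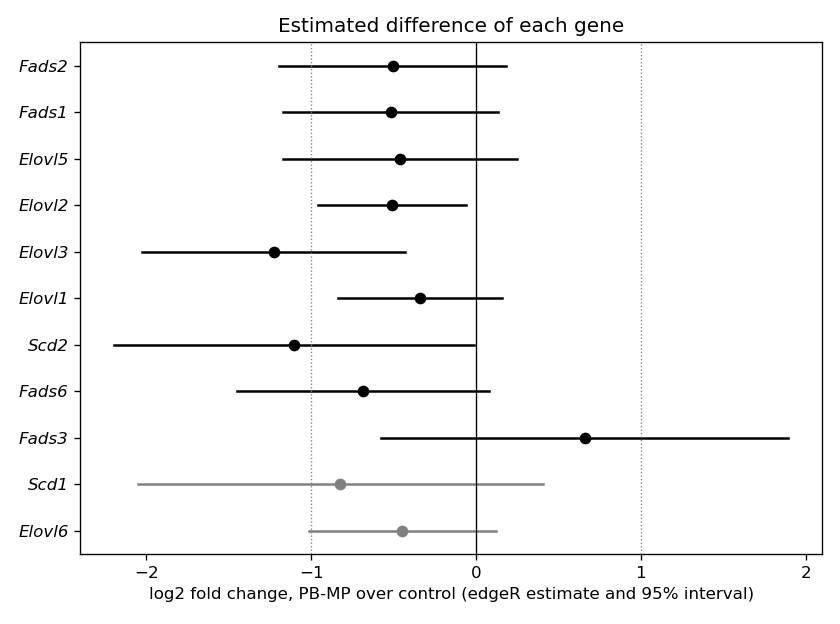
Log2 fold change of PB-MP over control (horizontal axis; points, edgeR estimates; lines, 95% intervals) for the 9 genes in black and for Scd1 and Elovl6 in grey, with dotted lines at -1 and 1. The intervals of Elovl3, Elovl2 and Scd2 lie below 0 before adjustment, and those of Elovl1 and Elovl2 lie between the dotted lines.

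The size of any difference was bounded for few members. A 95% interval that stayed between -1 and 1 on the log2 scale was found for 2 of the 9, Elovl1 and Elovl2, against 45.7% of all genes tested. That number was 1 with any 1 of control replicates 2 and 3 and PB-MP replicates 1 and 2 left out. For the other 7 the interval reached past a 2-fold difference. In simulated libraries of this comparison, run on 17483 genes, edgeR found 0 of 67 genes that had been changed 2-fold and 24 of 66 that had been changed 4-fold. Besides these, 67 genes were changed 1.5-fold, and no others. With so few changed genes the adjusted threshold is stricter than where many genes differ. In the measured libraries 12.1% of all genes had an unadjusted p below 0.05. The simulated numbers therefore do not give the chance of finding a change in the 9 genes.

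Other enzymes of the same reactions were taken from lists chosen with results of these data known. Of 8 further elongases and desaturases, 5 were testable, 0 passed, 0 had an unadjusted p below 0.05, 4 estimates lay below 0 and the median log2 fold change was -0.82. Scd1 had 5770, 1589 and 2248 CPM in PB-MP, against 5992, 3509 and 7509 CPM in control (-0.82 ± 0.52, edgeR adjusted p = 0.563). Its estimate was -1.56 without PB-MP replicate 1 and -0.50 without PB-MP replicate 2. Elovl6, which lengthens palmitate, had 25.6, 16.7 and 18.3 CPM in PB-MP, against 21.5, 33.1 and 28.1 CPM in control (-0.45 ± 0.24, edgeR adjusted p = 0.498). Scd3 had 11.7 and 8.76 CPM in PB-MP replicates 1 and 2, against 34.7, 9.54 and 26.2 CPM in control. In PB-MP replicate 3 it had 0 reads, which allows up to 0.0308 CPM by counting error alone. Of Scd3 transcript stretches of 50 bases, 4.77% also occur in Scd1, and how such reads were assigned was not tested. Elovl4 had 0 reads in every library.

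Fatty acid elongation runs through 3 further enzymes after the elongase, and desaturases draw electrons through cytochrome b5 and its reductase. At an unadjusted p below 0.05, 4.74% of all genes were lower and 7.35% higher. Of 12 tested genes of this machinery among 13, 0 passed, 1 was lower and 0 were higher at that p, and the median was -0.09. That gene was Cyb5r3, the cytochrome b5 reductase, with 429, 414 and 311 CPM in PB-MP and 720, 429 and 596 CPM in control (-0.60 ± 0.24, edgeR adjusted p = 0.394). Tecr, the reductase that ends the elongation cycle, was at -0.50 ± 0.23 and Cyb5r1, another reductase of the family, at 0.52 ± 0.24. Like Fads1 and Fads2, Cyb5r3 and Tecr were lowest among controls in replicate 2 and lowest in PB-MP in replicate 3.

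The shares of all genes at an unadjusted p below 0.05, 4.74% lower and 7.35% higher, also stand beside the next 3 lists. For acyl-CoA supply, 0 of 15 genes passed or had an unadjusted p below 0.05, and the median was -0.09. Besides Acot3, the smallest p in this list were those of Acsl3, a long-chain acyl-CoA synthetase, at 0.35 ± 0.21 and Acot4, a peroxisomal thioesterase, at 0.40 ± 0.24. Of 15 tested genes of 16 that place polyunsaturated chains in phospholipids or shorten them in peroxisomes, the last step of docosahexaenoic acid synthesis, 0 passed, 1 was lower at an unadjusted p below 0.05 and the median was -0.12. That gene was Acaa1b, a peroxisomal thiolase, at -0.77 ± 0.31 (edgeR adjusted p = 0.389), and Hsd17b4, which acts before it, was at -0.29 ± 0.17. Of 8 tested genes of 9 for ceramide synthesis, the main use of very long saturated chains, 0 passed, 2 were lower at an unadjusted p below 0.05 and the median was -0.17. Both act at the start of the route, Sptlc1 at -0.54 ± 0.19 and Kdsr at -0.50 ± 0.17, and Sptlc2, the partner of Sptlc1, was at -0.35 ± 0.17.

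Among 18 transcriptional regulators of these genes, 0 passed in edgeR, DESeq2 called 1 higher, Mlxipl, and the median was -0.04. At an unadjusted p below 0.05, 1 was higher and 1 lower. Over all genes, 7.35% were higher and 4.74% lower at that p, and DESeq2 called 1.72% higher and 0.719% lower. Srebf1, which encodes the sterol-regulated factor SREBP1 known to drive Fads1, Fads2 and Elovl5, had 28.5, 31.8 and 12.7 CPM in PB-MP, against 33.2, 24.9 and 16.2 CPM in control (-0.03 ± 0.40, edgeR adjusted p = 0.983), and its sign turned under other settings. It was highest in control replicate 1 and lowest in PB-MP replicate 3, as were Fads1 and Fads2, but second highest in PB-MP replicate 2. Mlxipl, which encodes the carbohydrate-responsive factor ChREBP, had 158.7, 94.0 and 201 CPM in PB-MP, against 60.6, 57.2 and 50.5 CPM in control (1.43 ± 0.28, edgeR adjusted p = 0.207, DESeq2 adjusted p = 0.00125). Rxra, the common partner of lipid-sensing nuclear receptors, had 41.0, 195 and 179 CPM in PB-MP, against 415, 241 and 384 CPM in control. Its estimate was -1.33 ± 0.55, and ran from -1.66 to -0.89 with 1 library left out. Mlx, the partner of ChREBP, was at -0.37 ± 0.17. Mlxipl was thus estimated higher while 8 of the 9 elongases and desaturases were estimated lower, and no estimate among them passed in edgeR.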

How the data were processed

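Liver poly(A) RNA went into directional libraries, per the labels' protocols. GRCm39 and bcl2fastq are named in the submitters' processing notes, with aligner, counter, annotation and strand setting not given in the sources used here. What the authors deposited are unnormalized counts of reads for 56674 rows named by gene symbol, singly and as 1 table, whose 6 columns equal the single files; 939 rows have a name that occurs more than once.

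Genes were kept by filterByExpr (minimum count 10, total 15), which left 17871, and tested with the quasi-likelihood test of edgeR 4.0.16 in R 4.3.3 after TMM scaling, at a Benjamini-Hochberg adjusted p below 0.05. The SE is the log2 fold change over the square root of F. DESeq2 1.42.0 and limma 3.58.1 were alternatives. No other splits or set tests were made. Log2 CPM for profiles used a prior count of 2; ratios used 0.5 added to counts. Lengths, overlaps and shared stretches came from GENCODE M21 on GRCm38, not the build of the files. The test was tested on simulated data.

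Members and lists were chosen with earlier results of these data known. Named were all members, Scd1, Elovl6 and Srebf1, in each list the 3 genes with the lowest p whose mean reached 1 CPM, and the nearest named gene to each member above 1 CPM; 1 gene under this rule is not reported here. The limit of 3 reads that a count of 0 allows covers counting error only. A chi-square per degree of freedom of at least 181 separated every pair of libraries in a group. Alternatives were other scalings, filters and tools, a replicate block, libraries left out and ribosomal and mitochondrial rows left out.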

Additional observations from a re-analysis of the deposited data

How the results depend on the processing

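All 9 members kept the sign of their log2 fold change under the 16 alternatives, and 0 passed at an adjusted p below 0.05 except Elovl3 with DESeq2, where the number of members past the threshold was 1. Elovl3 ran from -1.52 to -0.87. Over all genes, edgeR called 0, DESeq2 called 512, and the number was 2 with PB-MP replicate 3 and control replicate 2 both left out. It ran from 0 to 1 with 1 library left out, 1 being without control replicate 1. Members with an interval within -1 to 1 numbered 4 with quality weights in limma-voom and 1 to 3 with 1 library left out. Members at an unadjusted p below 0.05, recounted under each setting after seeing the data, numbered 1 with library size only, 5 with PB-MP replicate 3 and control replicate 2 both left out, and 2 to 4 with 1 library left out. The difference of the log2 ratio of Fads1 to Fads2 ran from -0.036 to 0.039 with 1 library left out and turned to 0.021 without PB-MP replicate 1 and to 0.039 without control replicate 3. That of Elovl5 to Elovl2 ran from -0.31 to 0.21, and was -0.26 with PB-MP replicate 3 and control replicate 2 both left out. That of Elovl3 to Elovl1 ran from -1.22 to -0.58. Srebf1, at -0.27 without control replicate 3, turned to 0.19 with library size only, 0.26 with quality weights, 0.24 without control replicate 1, 0.28 without PB-MP replicate 3 and 0.27 with PB-MP replicate 3 and control replicate 2 both left out. The cause of these shifts was not tested.

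The replicate numbers are shared by the groups, but same-numbered libraries did not deviate together (correlations of -0.0869, 0.0935 and 0.0816 for replicates 1, 2 and 3), and not every library correlated best with its own number. With the number as a replicate block, 0 members and 0 genes passed, 2 members had an unadjusted p below 0.05 and 2 had an interval within -1 to 1. The differences of the log2 ratios, -0.01, 0.00 and -0.79, could not change, since the mean over same-numbered pairs equals the difference of the group means. Fads3 had 29 to 136 reads.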
